A study of Mus musculus with 8 samples.

Results

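The cytochrome P450 genes described here are the rows of a mouse liver read-count table whose symbol begins with Cyp and a number, apart from 14 well-known drug, fatty acid, bile acid, retinoid and sterol P450 rows (Cyp51, Cyp1a2, Cyp2e1, Cyp2b9, Cyp2b10, Cyp2b13, Cyp3a11, Cyp4a10, Cyp4a14, Cyp7a1, Cyp7b1, Cyp8b1, Cyp26a1 and Cyp27a1). That rule took 87 of the 22946 rows of the table and 87 of its 101 P450 rows. It used symbols alone and no measured value. Of the 87 rows, 5 are pseudogenes by their symbol and 1 joins the near-identical Cyp3a41b and Cyp3a41a. A total of 60 rows passed the filter on low counts and were tested, and 27 did not. The RNA came from livers of C57 Black mice whose high fat diet (HFD) or chow began at 8 weeks of age and lasted 8 weeks. The 4 groups, with 2 libraries each, were MLL4 het-labelled mice on HFD (libraries 7 and 8), MLL4 het-labelled mice on chow (libraries 3 and 4), wild-type mice on HFD (libraries 5 and 6) and wild-type mice on chow (libraries 1 and 2). MLL4 is the histone methyltransferase KMT2D, and the study set out to find the genes that respond to HFD in wild-type livers and respond less in livers of MLL4 het animals. The allele, and whether it is absent in all tissues or in liver cells alone, are not given in the sources used here.

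P450 enzymes are haem proteins that insert an oxygen atom into drugs, steroids, fatty acids, sterols and retinoids, and most of those in liver sit in the endoplasmic reticulum of hepatocytes, where they draw electrons from the reductase encoded by Por. Families 1 to 3 are known for the oxidation of foreign compounds, steroids and arachidonic acid, and family 4 for the hydroxylation of fatty acids and eicosanoids at the chain end. Most of the remaining families make or break down steroid hormones, oxysterols, vitamin D and retinoic acid. Many of the hepatic genes are induced through the nuclear receptors CAR (Nr1i3) and PXR (Nr1i2), and in mice a good number differ between males and females under the control of the growth hormone pattern.

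Total counts per library ranged from 14142884 to 18928676, and 3 counts were worth 0.161 to 0.213 CPM (counts per 1e+06 counts of the library, with TMM scaling). Within each group the pair of libraries differed beyond sampling noise, with a chi-square of 14.9 to 16.3 per degree of freedom. Nothing in the labels says that they came from separate animals, so p-values measure the spread between libraries, which may be technical. Mll2, the row of the Kmt2d gene, had 59.9 to 75.3 CPM in the 4 het-labelled libraries and 61.2 to 69.6 CPM in the 4 wild-type libraries. Its level therefore did not set the het-labelled libraries apart, and counts over the whole gene do not check a deletion of part of it. Hepatocyte markers summed to between 72843 and 90749 CPM in every library, and adipocyte markers to at most 0.426 CPM. Xist stood between 0.0536 and 0.492 CPM and the Y-linked Ddx3y between 60.1 and 78.3 CPM in all 8 libraries, the levels of male livers. In bulk RNA, fewer cells of a type and less RNA per cell cannot be told apart.

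The promoters of the 5 genes called for diet in both genotypes, and of Cyp2d9, the most abundant uncalled Cyp2d gene, for contrast, are shown as the 250 bases before the annotated start (RefSeq, GRCm38.p6, 5′ to 3′ on the strand of the gene). Capitals mark matches, on either strand, to TATAAA (or TTTATA, the same motif read on the other strand), to AGGTCA, a hexamer that nuclear receptors bind, and to GCGTG, the core that the aryl hydrocarbon receptor binds. They lie at chr19:39006769-39007018 (plus strand, Cyp2c55), chr19:39286835-39287084 (plus, Cyp2c29), chr5:145805875-145806124 (minus, Cyp3a44), chr15:82764123-82764372 (minus, Cyp2d40), chr15:82452127-82452376 (plus, Cyp2d9) and chr12:108334066-108334315 (plus, Cyp46a1).
Cyp2c55: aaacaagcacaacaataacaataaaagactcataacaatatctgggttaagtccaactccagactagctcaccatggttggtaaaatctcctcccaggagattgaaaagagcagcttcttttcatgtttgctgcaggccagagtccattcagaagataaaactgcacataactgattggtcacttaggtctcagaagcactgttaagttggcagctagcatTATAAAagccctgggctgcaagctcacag
Cyp2c29: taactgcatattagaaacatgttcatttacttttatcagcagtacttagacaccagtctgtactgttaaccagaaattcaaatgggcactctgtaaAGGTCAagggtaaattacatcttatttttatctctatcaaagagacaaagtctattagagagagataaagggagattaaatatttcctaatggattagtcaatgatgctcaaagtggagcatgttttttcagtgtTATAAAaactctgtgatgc
Cyp3a44: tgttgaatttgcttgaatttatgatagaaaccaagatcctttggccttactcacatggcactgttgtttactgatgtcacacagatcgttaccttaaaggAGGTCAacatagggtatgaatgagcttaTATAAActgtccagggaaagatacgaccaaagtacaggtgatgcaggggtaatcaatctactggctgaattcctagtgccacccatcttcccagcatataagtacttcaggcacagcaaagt
Cyp2d40: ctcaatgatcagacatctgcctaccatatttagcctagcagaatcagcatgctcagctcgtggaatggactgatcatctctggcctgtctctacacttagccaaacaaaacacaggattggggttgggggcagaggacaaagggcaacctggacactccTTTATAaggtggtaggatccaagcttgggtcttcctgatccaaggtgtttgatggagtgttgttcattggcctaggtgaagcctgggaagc
Cyp2d9: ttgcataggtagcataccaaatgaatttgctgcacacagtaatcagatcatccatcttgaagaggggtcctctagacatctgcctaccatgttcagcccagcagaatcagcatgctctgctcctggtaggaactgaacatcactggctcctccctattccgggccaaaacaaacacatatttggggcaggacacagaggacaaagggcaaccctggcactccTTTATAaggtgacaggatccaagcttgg
Cyp46a1: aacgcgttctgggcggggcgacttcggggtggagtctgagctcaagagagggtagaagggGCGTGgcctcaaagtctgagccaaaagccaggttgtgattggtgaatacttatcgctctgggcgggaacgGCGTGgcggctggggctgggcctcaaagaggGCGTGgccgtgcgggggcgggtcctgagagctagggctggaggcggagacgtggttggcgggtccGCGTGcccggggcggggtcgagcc
A TATAAA match begins 29 bases before the start of Cyp2c55, 19 before that of Cyp2c29 and 28 before that of Cyp2d9, 122 bases before that of Cyp3a44 and 91 before that of Cyp2d40, and the Cyp46a1 window holds none. The motif occurs in 44.0% of the 50 promoters of tested rows and in 12.4% of the 32851 promoters of the same length in the RefSeq table. AGGTCA occurs in 18.0% against 14%, GCGTG in 18.0% against 28.2%, and TTCNNNGAA, the palindrome that STAT5 binds, in 4.0% against 7.02%. No matches of different motifs overlap in the 6 windows shown, and the Cyp46a1 window holds 4 matches to GCGTG. Between the Cyp2d40 and Cyp2d9 windows, 79.3% of 188 aligned positions were identical. The 50 promoters belong to 44 tested rows, and some are near-copies, such as those of Cyp2c40 and Cyp2c69 (98.6% identical) and of Cyp2a4 and Cyp2a5 (98.4%). A match that copies share is counted repeatedly in the shares above.

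Most calls among these genes were lower levels on HFD, in the Cyp2c, Cyp3a and Cyp2a subfamilies and for Cyp1a1 and Cyp4a31, while Cyp2d40, Cyp2d37-ps, Cyp46a1 and Cyp17a1 rose in at least 1 genotype. In wild-type livers, 3 of the 60 tested rows rose and 11 fell on HFD (edgeR's quasi-likelihood test, Benjamini-Hochberg adjusted p under 0.05), which is 23.3% of them, against 4.59% of all 12593 tested rows (2.37% higher and 2.22% lower). In het-labelled livers, 3 rose and 4 fell, 11.7% of the 60 rows against 3.02% of all tested rows (1.53% higher and 1.48% lower). The median log2 change of the 60 rows was -0.28 in wild-type and -0.23 in het-labelled livers, against 0.02 and -0.01 over all tested rows. The 87 rows together took 1.30% and 1.22% of the counts of het-labelled HFD libraries 7 and 8, against 1.40% and 1.45% on chow. In wild-type livers they took 1.23% and 1.27% on HFD, against 1.62% and 1.51% on chow. The groups of each genotype therefore did not overlap in this share, which was lower on HFD.

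The number of calls depended on single libraries, for these genes and over all tested rows. In wild-type livers the count of 11 lower rows became 3 without library 5, 5 without library 6, 2 without library 1 and 5 without library 2. Over all tested rows the share called lower became 0.802%, 0.635%, 0.484% and 0.627% in these fits, against 2.22% with all libraries. The 3 rows that rose became 1 without library 5, 1 or 2, and 2 without library 6. In het-labelled livers the 4 rows that fell became 9 without library 7 and 2 without library 4. They also became 2 without either wild-type chow library, although neither belongs to the groups compared. Over all tested rows the share lower in het-labelled livers was 0.818% in the fit without library 7 and 0.969% in that without library 4. It was 0.524% and 0.492% with wild-type chow library 1 or 2 left out, against 1.48% with all libraries. The 3 that rose in het-labelled livers became 1 without library 7 and 2 without any 1 of libraries 3, 5, 6, 1 and 2. Calls of Cyp2c55, Cyp2c29 and Cyp2d40 in het-labelled livers and of Cyp2c55, Cyp1a1 and Cyp2d40 in wild-type livers held in each of the 13 alternatives run.

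**Figure D1:**
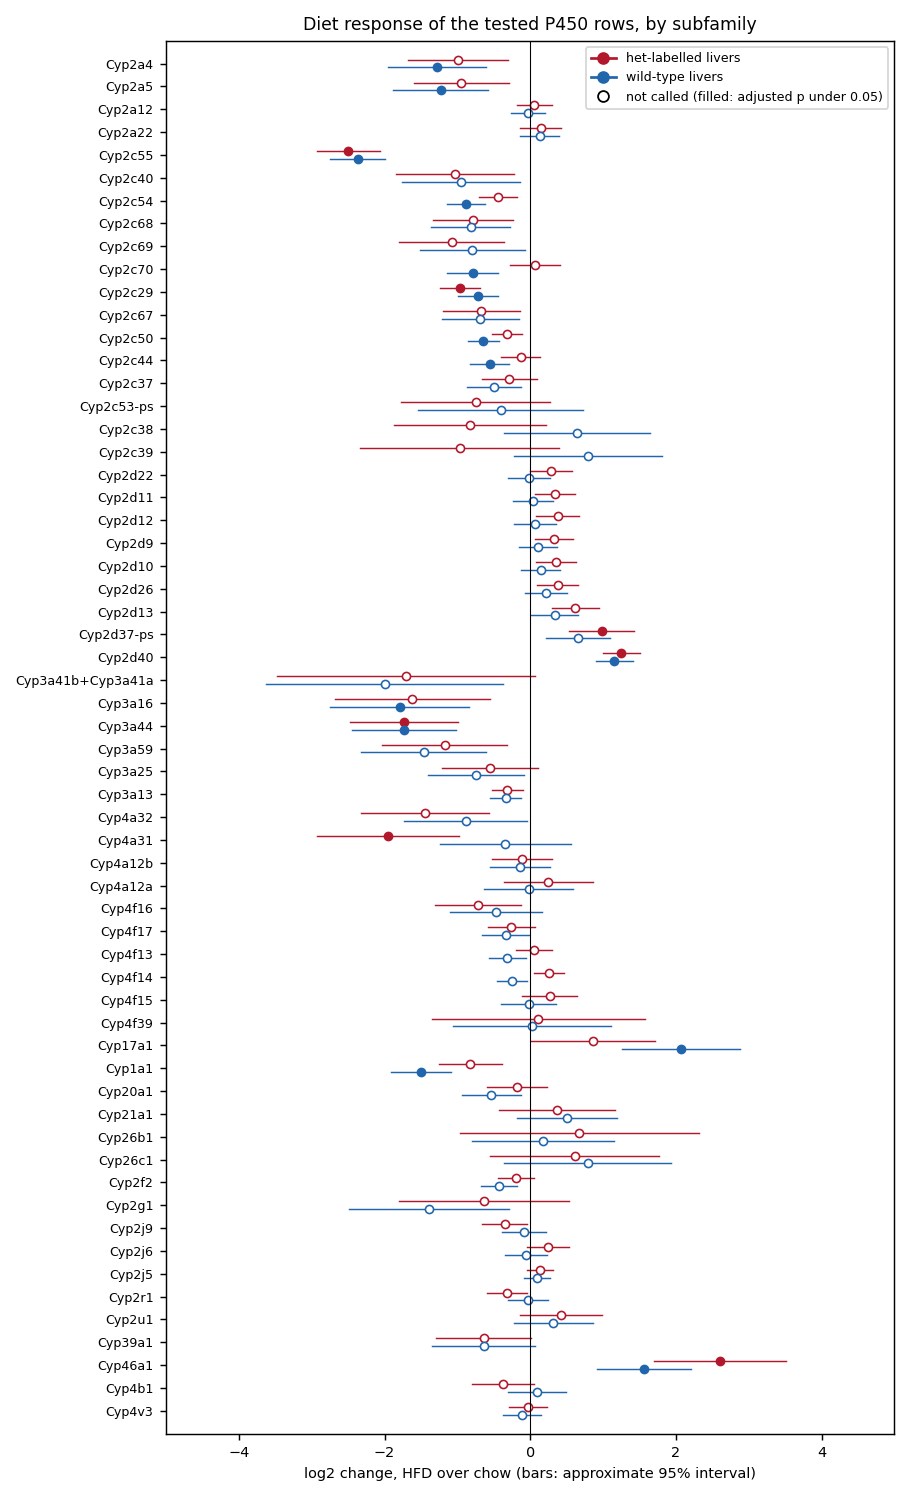
Log2 change (HFD over chow, horizontal axis) of the 60 tested rows, grouped by subfamily down the page, in het-labelled livers (red, upper of each pair) and wild-type livers (blue), with approximate 95% intervals. Filled points passed an edgeR adjusted p of 0.05: Cyp2c and Cyp3a rows lie mostly left of 0, Cyp2d rows mostly right of it, from -2.50 for Cyp2c55 to 2.61 for Cyp46a1.

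Cyp2c was the subfamily with the most calls. These enzymes oxidise drugs and turn arachidonic and linoleic acid into epoxides and hydroxy acids. Counts of its 16 rows summed to 4278 and 4292 CPM in het-labelled HFD libraries, against 6249.7 and 6374 CPM on chow. In wild-type livers the sums were 3536 and 3917 CPM on HFD, against 6423 and 5658 CPM on chow. The sum was lower in each HFD library than in each chow library. Of the 14 tested rows, 6 fell in wild-type livers and 2 in het-labelled livers, and the log2 change was below 0 in 12 and 13 of them. Of all tested rows, 2.22% were called lower in wild-type and 1.48% in het-labelled livers, and 46.1% and 51.2% were below 0. The Cyp2c genes lie on chromosome 19.

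Cyp2c55, a CAR- and PXR-inducible enzyme that hydroxylates arachidonic acid, showed the largest fall of all tested rows of these families. It stood at 2.04 and 2.56 CPM in het-labelled HFD libraries, against 12.5 and 13.2 CPM in het-labelled chow libraries. In wild-type livers it stood at 4.21 and 3.83 CPM on HFD, against 18.2 and 23.4 CPM on chow. The groups were far apart in both genotypes. On HFD the level was 5.64-fold lower in het-labelled livers (log2 change -2.50 ± 0.19 SE, edgeR adjusted p = 0.000711) and 5.17-fold lower in wild-type livers (-2.37 ± 0.17, edgeR adjusted p = 0.000261). Cyp2c29, a CAR-inducible enzyme and per kilobase of transcript the most abundant of these genes on chow, stood at 1509.9 and 1314 CPM in het-labelled HFD libraries, against 2917 and 2588 CPM in het-labelled chow libraries. In wild-type livers it stood at 1290.0 and 1524 CPM on HFD, against 2366 and 2264 CPM on chow. HFD and chow libraries did not overlap. It fell in both genotypes (log2 change -0.96 ± 0.12 in het-labelled livers, edgeR adjusted p = 0.00828, and -0.72 ± 0.12 in wild-type livers, edgeR adjusted p = 0.0143). Its wild-type call ended without library 5, 1 or 2 (adjusted p up to 0.109). On the scale of CPM per kilobase of the reference transcript, Cyp2c29 averaged 792 ± 77.6 in het-labelled HFD and 1544 ± 131 in het-labelled chow livers, and 789 ± 92.8 in wild-type HFD and 1298 ± 40.4 in wild-type chow livers (SD, n = 2 each), first among these genes on chow and second to Cyp2d9 on HFD.

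The neighbouring epoxygenase genes Cyp2c50 and Cyp2c54 fell in wild-type livers. Cyp2c50 stood at 903 and 811 CPM on HFD and 1046 and 1095 CPM on chow in het-labelled livers. Cyp2c50 in wild-type livers had 765 and 813 CPM on HFD and 1274 and 1199 CPM on chow. For both genotypes the HFD libraries of Cyp2c50 lay below the chow libraries. Cyp2c54 had 335 and 311 CPM on HFD and 400.3 and 477 CPM on chow in het-labelled livers. Cyp2c54 in wild-type livers had 247 and 269 CPM on HFD and 509 and 441 CPM on chow. Its groups did not overlap either. The log2 changes of Cyp2c50 were -0.32 ± 0.09 in het-labelled livers (edgeR adjusted p = 0.113) and -0.65 ± 0.09 in wild-type livers (edgeR adjusted p = 0.00796). Those of Cyp2c54 were -0.44 ± 0.11 (edgeR adjusted p = 0.0821) and -0.88 ± 0.12 (edgeR adjusted p = 0.00548). The wild-type call of Cyp2c50 ended without library 5 or 1 (adjusted p up to 0.0816) and that of Cyp2c54 without library 1 (0.0542). Cyp2c37, a close relative of both, stood at 388 and 426 CPM on HFD and 463 and 531 CPM on chow in het-labelled livers. Cyp2c37 in wild-type livers had 265 and 289 CPM on HFD and 466 and 316 CPM on chow. The groups did not overlap in either genotype, but the 2 wild-type chow libraries were far apart. It did not pass the test (log2 change -0.29 ± 0.17, edgeR adjusted p = 0.412 in het-labelled livers, and -0.50 ± 0.17, 0.143 in wild-type livers).

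Cyp2c70, the mouse enzyme that makes muricholic acids from chenodeoxycholic acid, had unlike values in the genotypes. In het-labelled livers it had 549 and 732 CPM on HFD, against 634 and 592 CPM on chow, and the groups overlapped. In wild-type livers it had 348 and 407 CPM on HFD, against 715 and 591 CPM on chow, and they did not. It fell in wild-type livers (log2 change -0.79 ± 0.15, edgeR adjusted p = 0.0253), and its change in het-labelled livers was 0.06 ± 0.15 (edgeR adjusted p = 0.883). These changes differed by 0.85 (log2, 95% interval 0.36 to 1.34), which did not pass the interaction test over all rows (edgeR adjusted p = 0.588). Cyp2c70 was the 1 row of the 60 that passed it with DESeq2 (adjusted p = 0.0451), and over the other 11 alternatives with a value the adjusted p ran up to 0.97. Cyp2c44, an arachidonic acid epoxygenase, stood at 287 and 266 CPM on HFD and 286 and 320.1 CPM on chow in het-labelled livers. Cyp2c44 in wild-type livers had 222 and 255 CPM on HFD and 383 and 319.5 CPM on chow. The groups overlapped in het-labelled livers only. Cyp2c44 fell in wild-type livers (-0.56 ± 0.12, edgeR adjusted p = 0.0341), with a change of -0.13 ± 0.12 in het-labelled livers (0.631). The wild-type calls of Cyp2c70 and Cyp2c44 ended without any 1 of libraries 5, 6, 1 and 2 (adjusted p up to 0.208 and 0.246).

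Cyp2c40, Cyp2c67, Cyp2c68 and Cyp2c69 did not pass the test in either genotype, with log2 changes of -0.67 to -1.08 in het-labelled livers and -0.69 to -0.96 in wild-type livers. Their rows cannot be fully separated. Cyp2c40, Cyp2c69 and Cyp2c67 share 72.1%, 54.8% and 52.8% of the 50-base windows of their transcripts with another gene. How reads with several matches were counted is not given in the sources used here. Of the 58 tested rows of these families that matched a reference transcript, 32 shared more than 10% of their windows with another gene, whereas Cyp2c55 (1.13%), Cyp2c29 (2.08%), Cyp2c70, Cyp46a1, Cyp26b1 and Cyp17a1 (0.0% each) shared few or none.

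**Figure D2:**
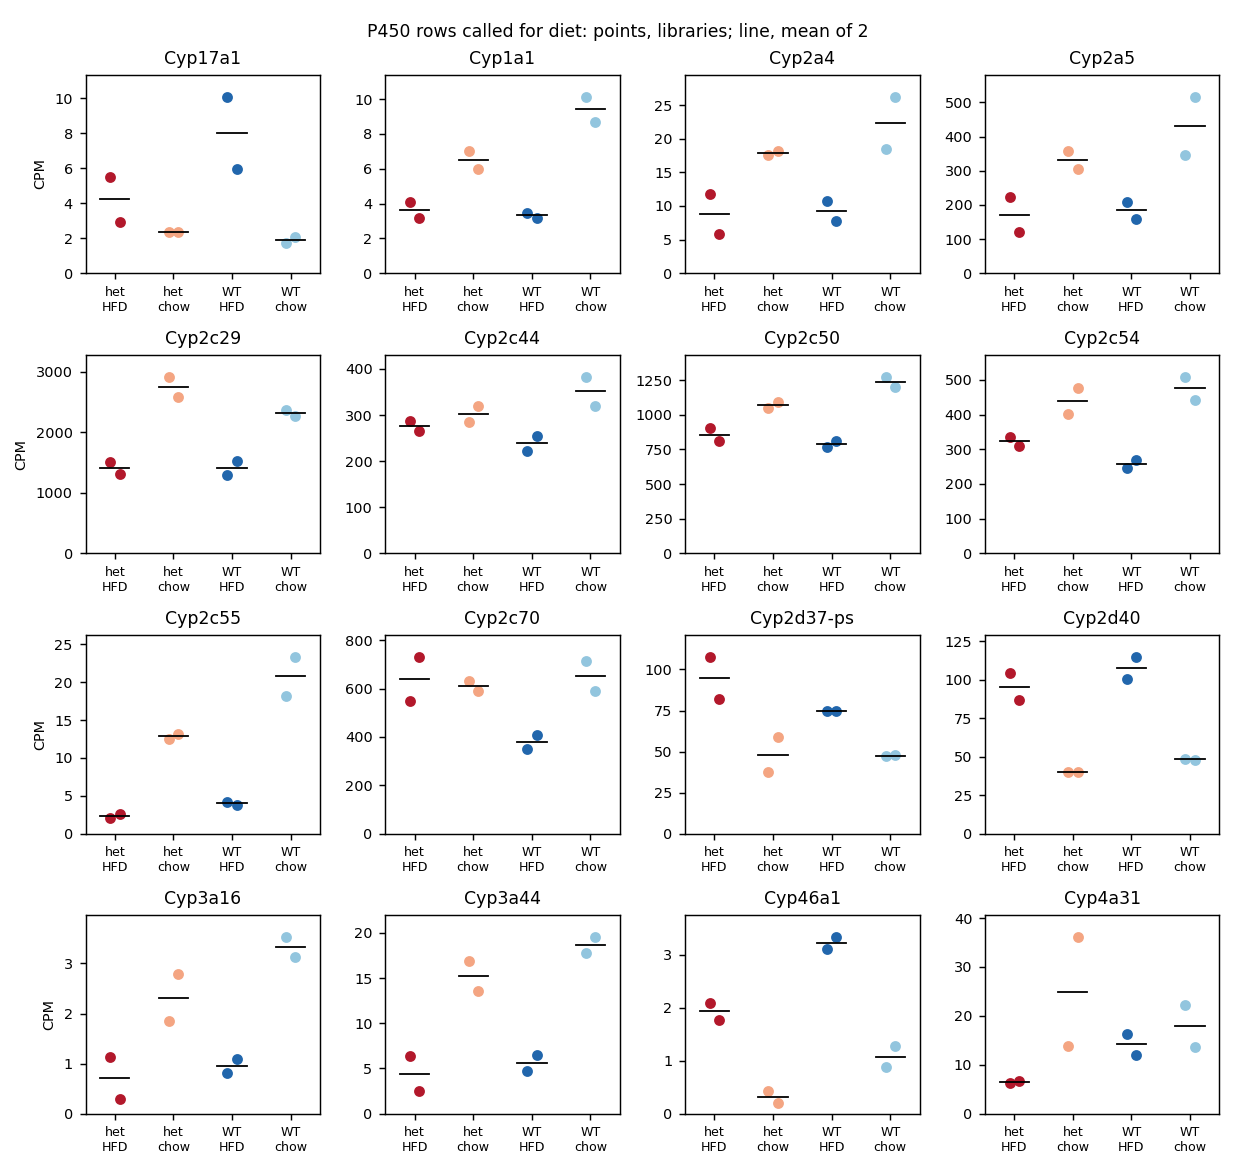
Level in CPM (vertical axis, from 0) of the 16 rows called for diet in at least 1 genotype, with 1 point per library and a line at the mean of 2, in het-labelled HFD, het-labelled chow, wild-type HFD and wild-type chow livers. Cyp2c55, Cyp2c29 and Cyp3a44 are lower and Cyp2d40 and Cyp46a1 higher on HFD in both genotypes, and Cyp2c70 is lower on HFD in the wild-type livers with overlapping het-labelled libraries.

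Cyp2a4 and Cyp2a5 fell in wild-type livers while Cyp2a12 and Cyp2a22 were not called. Cyp2a5, the coumarin 7-hydroxylase of mouse liver, stood at 223 and 119.6 CPM on HFD and 359 and 304 CPM on chow in het-labelled livers. Cyp2a5 in wild-type livers had 209 and 159 CPM on HFD and 347 and 517 CPM on chow. The groups were separate in both genotypes, with library 2 the highest. Its near-copy Cyp2a4, a testosterone 15-alpha-hydroxylase, had 11.8 and 5.83 CPM on HFD and 17.6 and 18.2 CPM on chow in het-labelled livers. Cyp2a4 in wild-type livers had 10.8 and 7.71 CPM on HFD and 18.5 and 26.2 CPM on chow. For Cyp2a4 too, all HFD libraries lay below the chow libraries of their genotype. Log2 changes were -0.95 ± 0.29 for Cyp2a5 and -0.997 ± 0.30 for Cyp2a4 in het-labelled livers (edgeR adjusted p = 0.124 for each), and -1.23 ± 0.29 and -1.28 ± 0.29 in wild-type livers (edgeR adjusted p = 0.0484 and 0.0465). Both wild-type calls ended without any 1 of libraries 5, 6, 1 and 2 (adjusted p up to 0.26 and 0.258). Cyp2a4 and Cyp2a5 share 38.8% and 40.8% of their windows with another gene, chiefly each other, so that part of their reads may be exchanged. Cyp2a12 and Cyp2a22 had log2 changes of 0.06 and 0.14 in het-labelled and of -0.03 and 0.13 in wild-type livers, and neither passed the test.

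Cyp1a1, a target of the aryl hydrocarbon receptor that oxidises polycyclic aromatic hydrocarbons, fell in wild-type livers. In het-labelled livers it had 4.08 and 3.20 CPM on HFD, against 7.01 and 5.98 CPM on chow. Its wild-type libraries had 3.46 and 3.17 CPM on HFD, against 10.1 and 8.69 CPM on chow. Neither genotype's groups overlapped. The level on HFD was 2.83-fold lower in wild-type livers (log2 change -1.50 ± 0.18, edgeR adjusted p = 0.00375) and 1.77-fold lower in het-labelled livers, where it missed the threshold (-0.82 ± 0.19, edgeR adjusted p = 0.0561). Ahr, the gene of the receptor, did not pass the test in either genotype.

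Every tested Cyp3a row described here had a lower level on HFD in both genotypes. The calls among these rows fell on genes that are scarce in these male livers. Cyp3a11, left out by the rule, was also called lower on HFD in het-labelled livers (log2 change -1.62, edgeR adjusted p = 0.0316) and in wild-type livers (-1.63, edgeR adjusted p = 0.0236). Of all 12593 tested rows, 3859 were lower on HFD in both genotypes. Cyp3a enzymes oxidise steroids, bile acids and a wide range of drugs. The 7 rows summed to 738 and 383 CPM on HFD and 825 and 839 CPM on chow in het-labelled livers. In wild-type livers these rows summed to 611 and 581 CPM on HFD and 876 and 1117 CPM on chow. Cyp3a44, which is female-predominant in mouse liver, stood at 6.38 and 2.49 CPM on HFD and 16.9 and 13.6 CPM on chow in het-labelled livers. Cyp3a44 in wild-type livers had 4.73 and 6.45 CPM on HFD and 17.8 and 19.5 CPM on chow. The HFD libraries were well below the chow libraries in both genotypes. The difference was 3.33-fold in each (log2 change -1.74 ± 0.33, edgeR adjusted p = 0.0306 in het-labelled livers, and -1.73 ± 0.31, 0.0187 in wild-type livers). The wild-type call ended without any 1 of libraries 5, 6, 1 and 2 (adjusted p up to 0.132). Its het-labelled call ended without library 3, 4, 1 or 2 and in a fit of the 2 het-labelled groups alone (up to 0.101).

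Cyp3a16, known as a fetal and female form, stood at 1.13 and 0.284 CPM on HFD and 1.84 and 2.79 CPM on chow in het-labelled livers. Cyp3a16 in wild-type livers had 0.808 and 1.09 CPM on HFD and 3.53 and 3.13 CPM on chow. The groups did not overlap, and library 8 was the lowest. The Cyp3a16 transcript shares 10.7% of its windows with another gene, most often Cyp3a11 (6.13%). The part of shared reads in the Cyp3a44 and Cyp3a16 values was not tested. Cyp3a16 fell in wild-type livers (log2 change -1.79 ± 0.42, edgeR adjusted p = 0.0482), a call that ended without any 1 of libraries 5, 6, 1 and 2 (up to 0.257). In het-labelled livers its change was -1.62 ± 0.47 (edgeR adjusted p = 0.113). Cyp3a25 had the most counts of the Cyp3a rows described here and did not pass the test. It stood at 592 and 276 CPM on HFD and 636 and 639 CPM on chow in het-labelled livers. Cyp3a25 in wild-type livers had 479.7 and 443 CPM on HFD and 669 and 879.6 CPM on chow. Library 8 was the low one of the het-labelled HFD pair for every tested Cyp3a row described here. Cyp3a13 had changes of -0.32 ± 0.09 in het-labelled and -0.34 ± 0.09 in wild-type livers (log2 changes, with edgeR adjusted p of 0.116 and 0.0814). Cyp3a59 and the joined Cyp3a41b and Cyp3a41a row had changes of -1.17 and -1.71 in het-labelled and -1.47 and -1.999 in wild-type livers, and neither passed the test.

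Most tested Cyp2d rows had a higher level on HFD, and 2 of them passed the test in at least 1 genotype. Cyp2d enzymes oxidise steroids and many drugs, and Cyp2d9 is the male-predominant steroid 16-alpha-hydroxylase of mouse liver. The 10 rows summed to 4505 and 3848 CPM on HFD, against 3025 and 3362 CPM on chow in het-labelled livers, without overlap. In wild-type libraries they summed to 3823 and 4400.4 CPM on HFD and 3804 and 3521 CPM on chow, where the libraries nearest to each other were 5 and 1. The log2 change was above 0 in all 9 tested rows in het-labelled livers and below 0 in 1 of 9, Cyp2d22 (-0.02), in wild-type livers. Of all tested rows, 51.2% were below 0 in het-labelled and 46.1% in wild-type livers.

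Cyp2d40 was the Cyp2d row called in both genotypes. Its het-labelled libraries had 104 and 86.9 CPM on HFD, against 40.2 and 40.1 CPM on chow. Its wild-type libraries had 100.3 and 115 CPM on HFD, against 48.6 and 48.0 CPM on chow. The groups were wide apart. On HFD the level was 2.38-fold higher in het-labelled livers (log2 change 1.25 ± 0.11, edgeR adjusted p = 0.00208) and 2.23-fold higher in wild-type livers (1.16 ± 0.11, edgeR adjusted p = 0.00163). Its transcript shares 24.1% of its windows with another gene, chiefly the pseudogene Cyp2d41-ps. The pseudogene row Cyp2d37-ps stood at 108 and 81.9 CPM on HFD and 37.4 and 58.6 CPM on chow in het-labelled livers. Cyp2d37-ps in wild-type livers had 74.7 and 75.0 CPM on HFD and 47.2 and 47.9 CPM on chow. The groups did not overlap in either genotype. It rose in het-labelled livers (0.98 ± 0.20, edgeR adjusted p = 0.036), and its change in wild-type livers was 0.65 ± 0.19 (edgeR adjusted p = 0.105). That call ended without library 7, 3, 5, 6, 1 or 2 (adjusted p up to 0.139) and in a fit of the 2 het-labelled groups alone (0.129).

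Cyp2d9, the most abundant of these genes per kilobase on HFD, stood at 1834 and 1555 CPM on HFD and 1328 and 1378 CPM on chow in het-labelled livers. Cyp2d9 in wild-type livers had 1592 and 1823 CPM on HFD and 1664 and 1516 CPM on chow. The groups overlapped in wild-type livers. Cyp2d9 did not pass the test (log2 change 0.32 ± 0.12, edgeR adjusted p = 0.179 in het-labelled livers, and 0.10 ± 0.12, 0.691 in wild-type livers). Cyp2d26 had log2 changes of 0.38 ± 0.13 in het-labelled and 0.22 ± 0.13 in wild-type livers (edgeR adjusted p = 0.156 and 0.405), and Cyp2d13 of 0.62 ± 0.14 and 0.34 ± 0.14 (0.0571 and 0.241). Cyp2d10, Cyp2d11, Cyp2d12 and Cyp2d22 had changes of 0.28 to 0.38 in het-labelled and -0.02 to 0.14 in wild-type livers, and none of the 4 passed the test.

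**Figure D3:**
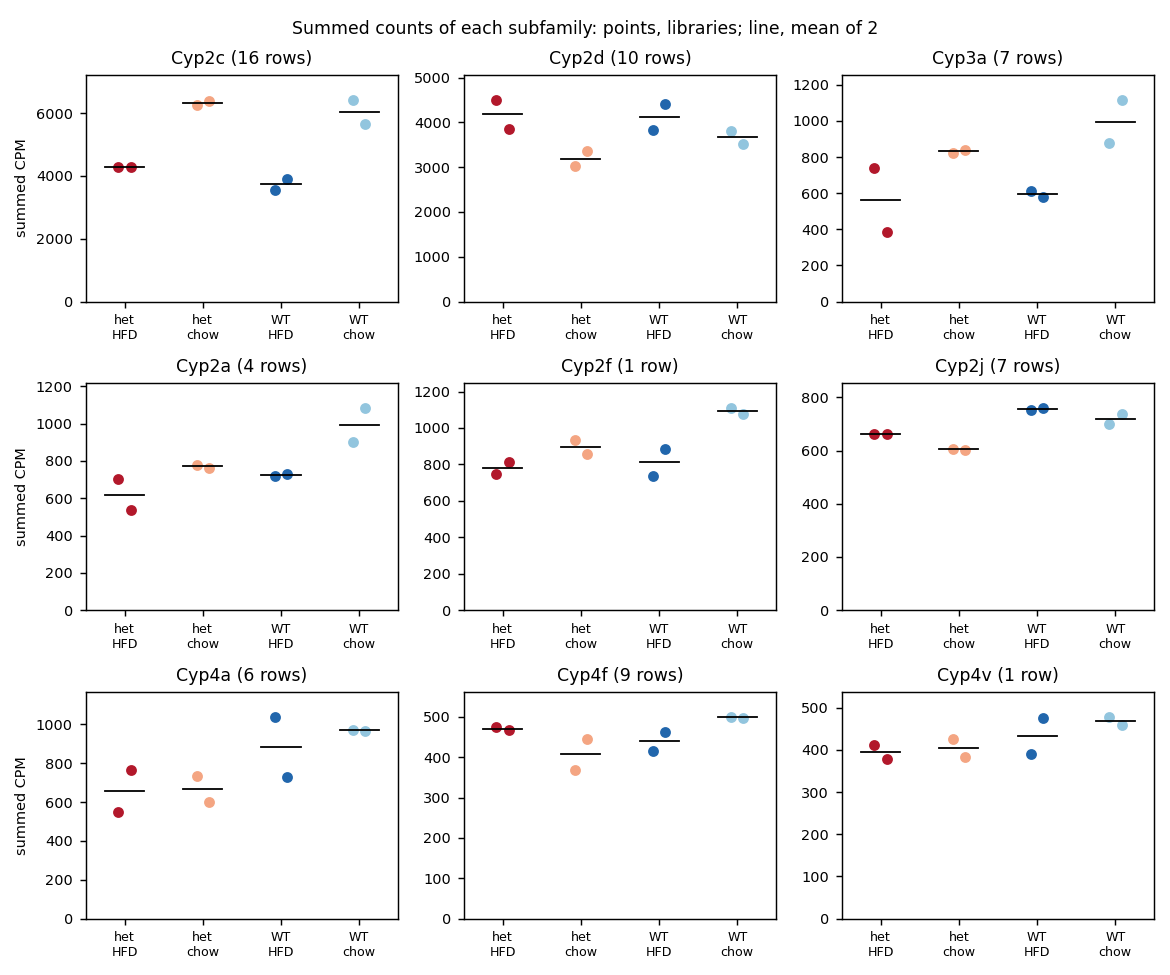
Summed CPM (vertical axis, from 0) of all rows of 9 subfamilies in each library, with a line at the mean of 2 libraries. Cyp2c sums are lower on HFD in both genotypes (4285 against 6312 CPM in het-labelled and 3727 against 6040.5 CPM in wild-type livers, means), Cyp2d sums are higher on HFD in het-labelled livers (4176 against 3194 CPM), and Cyp2j and Cyp4f sums differ less.

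Family 4 contributed 1 call among 12 tested rows of the Cyp4a, Cyp4b, Cyp4f and Cyp4v subfamilies. Cyp4a31, a member of the PPAR-alpha-responsive Cyp4a group, had 6.22 and 6.68 CPM on HFD, against 13.8 and 36.1 CPM on chow in het-labelled livers. In wild-type livers it had 16.3 and 12.1 CPM on HFD, against 22.3 and 13.7 CPM on chow, and the groups overlapped. It fell in het-labelled livers (log2 change -1.96 ± 0.43, edgeR adjusted p = 0.0489), where the 2 chow libraries were themselves far apart, and its change in wild-type livers was -0.34 ± 0.40 (edgeR adjusted p = 0.703). That call ended without any 1 of libraries 7, 8, 4, 5, 6, 1 and 2 and in a fit of the 2 het-labelled groups alone (adjusted p up to 0.177). Without library 4 the change was -1.11. Cyp4a32, its neighbour, stood at 25.3 and 29.7 CPM on HFD and 43.4 and 106 CPM on chow in het-labelled livers. Cyp4a32 in wild-type livers had 57.8 and 41.5 CPM on HFD and 113 and 71.1 CPM on chow. Cyp4a32 groups did not overlap in either genotype, and the row did not pass the test (-1.45 ± 0.39, edgeR adjusted p = 0.0896 and -0.89 ± 0.37, 0.238). Cyp4a31 shares 21.8% of its windows with another gene, chiefly Cyp4a32, and Cyp4a32 shares 46.8%, chiefly with Cyp4a10. Cyp4a10, left out by the rule, was called lower on HFD in het-labelled livers (log2 change -1.66, edgeR adjusted p = 0.0428). In wild-type livers Cyp4a10 was not called (0.12, edgeR adjusted p = 0.889). The part of shared reads in the Cyp4a31 and Cyp4a32 values was not tested.

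Cyp4a12a and Cyp4a12b, the male-predominant makers of the eicosanoid 20-HETE, had no diet call. Cyp4a12a stood at 338 and 560.4 CPM on HFD and 453 and 304 CPM on chow in het-labelled livers. Cyp4a12a in wild-type livers had 649 and 444 CPM on HFD and 524 and 586 CPM on chow, with overlapping groups. Cyp4a12b had 179 and 169 CPM on HFD and 223 and 154 CPM on chow in het-labelled livers. Cyp4a12b in wild-type livers had 315 and 234 CPM on HFD and 313 and 295 CPM on chow. Their transcripts share 48.9% and 49.4% of their windows, so their separate levels are uncertain. None of the 6 tested Cyp4f rows passed the test for diet. Cyp4f14, which inactivates leukotriene B4, had opposite signs in the genotypes (log2 change 0.26 ± 0.09, edgeR adjusted p = 0.171 in het-labelled livers, and -0.25 ± 0.09, 0.178 in wild-type livers). Cyp4f15 had changes of 0.27 ± 0.17 (edgeR adjusted p = 0.458) and -0.02 ± 0.17 (0.966). Cyp4v3, a fatty acid hydroxylase, had changes of -0.03 ± 0.11 in het-labelled and -0.11 ± 0.11 in wild-type livers (log2 changes, with edgeR adjusted p of 0.917 and 0.644).

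Of the steroid and sterol enzymes, Cyp46a1 and Cyp17a1 rose on HFD, both at low levels. Cyp46a1, the cholesterol 24-hydroxylase best known from neurons, had 2.09 and 1.78 CPM on HFD, against 0.425 and 0.204 CPM on chow in het-labelled livers. Cyp46a1 in wild-type livers had 3.11 and 3.33 CPM on HFD, against 0.882 and 1.27 CPM on chow. No groups overlapped, and the lowest library, chow library 4, sat at 3 counts. The level on HFD was higher in het-labelled livers (log2 change 2.61 ± 0.40, edgeR adjusted p = 0.0158) and in wild-type livers (1.57 ± 0.28, edgeR adjusted p = 0.0192). Without any 1 of libraries 5, 6, 1 and 2 the wild-type call ended (adjusted p up to 0.187). The het-labelled call ended without library 7 or 4, or in a fit of the 2 het-labelled groups alone (up to 0.0635).

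Cyp17a1, the 17-alpha-hydroxylase and lyase of steroid hormone synthesis, which is female-predominant in mouse liver, stood at 5.52 and 2.91 CPM on HFD and 2.34 and 2.38 CPM on chow in het-labelled livers. Cyp17a1 in wild-type livers had 10.1 and 5.96 CPM on HFD and 1.70 and 2.09 CPM on chow. The groups did not overlap in either genotype. On HFD it was 4.21-fold higher in wild-type livers (log2 change 2.07 ± 0.36, edgeR adjusted p = 0.0157), a call that ended without library 5, 1 or 2 (up to 0.148). Its change in het-labelled livers was 0.86 ± 0.37 (edgeR adjusted p = 0.267). Cyp39a1, an oxysterol 7-alpha-hydroxylase of the liver that acts on 24-hydroxycholesterol, the product of Cyp46a1, stood at 7.83 and 15.1 CPM on HFD and 18.8 and 16.5 CPM on chow in het-labelled livers. Cyp39a1 in wild-type livers had 6.69 and 5.14 CPM on HFD and 10.9 and 7.59 CPM on chow. HFD libraries lay below chow libraries in both genotypes, and the row did not pass the test (-0.64 ± 0.29, edgeR adjusted p = 0.284, and -0.64 ± 0.31, 0.308). Cyp21a1, the steroid 21-hydroxylase, and Cyp2r1, a vitamin D 25-hydroxylase, did not pass it either, with changes of 0.37 and -0.32 in het-labelled and 0.50 and -0.03 in wild-type livers.

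The other tested rows had no diet call. Cyp2f2, a periportal enzyme that activates naphthalene, stood at 746 and 815 CPM on HFD and 933 and 859 CPM on chow in het-labelled livers. Cyp2f2 in wild-type livers had 739 and 887 CPM on HFD and 1108 and 1078 CPM on chow. Each HFD library was below the chow libraries of its genotype (log2 change -0.20 ± 0.11, edgeR adjusted p = 0.389 in het-labelled livers, and -0.43 ± 0.11, 0.0637 in wild-type livers). Cyp2j5, an arachidonic acid epoxygenase, varied little, with 571 and 570.1 CPM on HFD and 530.3 and 511 CPM on chow in het-labelled livers. Cyp2j5 in wild-type livers had 655 and 669 CPM on HFD and 606 and 635 CPM on chow. Its log2 changes were 0.13 ± 0.08 in het-labelled and 0.09 ± 0.08 in wild-type livers (edgeR adjusted p = 0.434 and 0.58). The remaining Cyp2j rows that were tested, Cyp2j6 and Cyp2j9, and Cyp20a1, Cyp2u1, Cyp2g1, Cyp4b1 and Cyp26c1 did not pass the test in either genotype.

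The diet changes of the 60 rows resembled each other in the genotypes, which were compared on separate libraries. The sign was the same in 49 rows (81.7%, against 64.0% of all tested rows), with 32 lower and 17 higher in both, and Pearson's r between the log2 changes was 0.81 across these rows and 0.54 across all tested rows. Genes are not independent replicates, paralogues may share reads, and the fit shares its estimate of the spread between the genotypes. Called in both genotypes in the same direction were 5 rows (Cyp2c55, Cyp2c29 and Cyp3a44 lower, Cyp2d40 and Cyp46a1 higher), 9 in wild-type livers alone and 2 in het-labelled livers alone. A call in 1 genotype alone does not show a difference between genotypes. The interaction test called 0 of the 60 rows and 0% of all tested rows (edgeR), with 11 of the 60 at an unadjusted p under 0.05 (18.3%, against 7.15% of all tested rows). DESeq2 called 1 of the 60, Cyp2c70, and 0.23% of all tested rows. Groups did not overlap and were lower on HFD in 29 of 60 rows in each genotype, against a background of 22.4% of all tested rows in het-labelled and 25.2% in wild-type livers. They were higher on HFD in 16 rows in het-labelled (22.3%) and 10 in wild-type livers (30.6%).

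**Figure D4:**
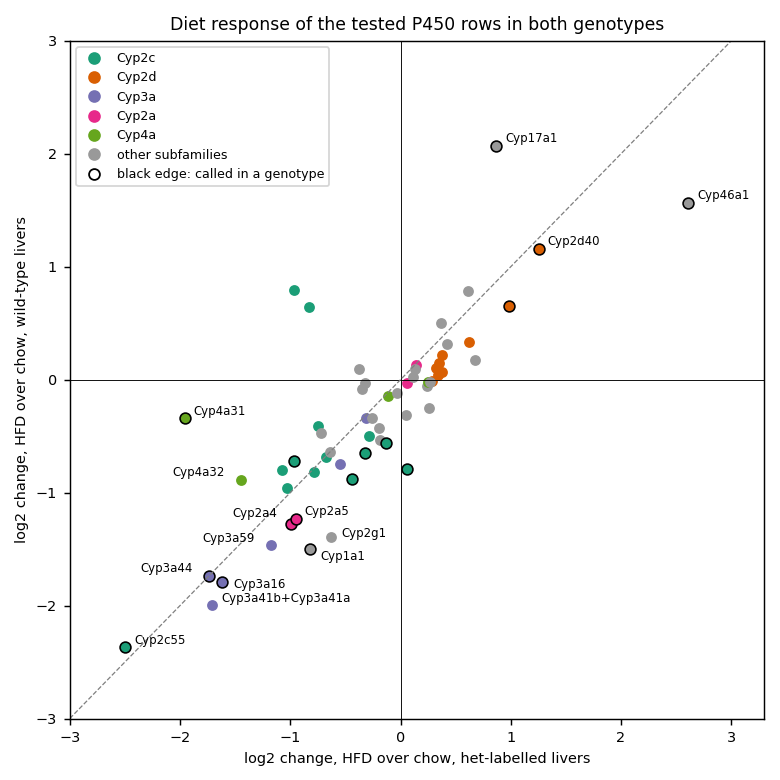
Log2 change (HFD over chow) of each of the 60 tested rows in het-labelled livers (horizontal axis) and wild-type livers (vertical axis), coloured by subfamily, with black edges on rows called in a genotype and a dashed line of equal change. Cyp3a rows, Cyp2a4, Cyp2a5 and most Cyp2c rows fall at the lower left and Cyp2d rows at the upper right or near 0, and 49 of 60 rows share their sign.

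A test of the mean diet change over both genotypes, added after the data were seen, called 24 of the 60 rows (5 higher and 19 lower, 40%, against 10.4% of all tested rows, of which 5.56% were higher and 4.84% lower). It added to the rows above Cyp2c40, Cyp2c67, Cyp2c68, Cyp2c69, Cyp2f2, Cyp3a13, Cyp3a59 and Cyp4a32 as lower and Cyp2d13 as higher, and it did not call Cyp2c70 (edgeR adjusted p = 0.0696). The 19 lower rows became 10 when library 5 was left out, and likewise 10 when library 6 or library 1 was. The share of all tested rows called lower then became 2.76%, 2.48% and 2.14%.

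Between het-labelled and wild-type livers on the same diet, no row passed the test. On HFD, edgeR called 0 of 60 rows, against 0.445% of all tested rows (0.0953% higher and 0.349% lower), with 18 at an unadjusted p under 0.05 (30%, against 13.8% of all tested rows). DESeq2 called 2 higher and 2 lower on HFD, and 1.91% of all tested rows in either direction. On chow, edgeR called 0 of 60, against 0.516% (0.326% higher and 0.191% lower), with 16 at an unadjusted p under 0.05 (26.7%, against 15.3% of all tested rows). DESeq2 called 2 lower on chow, and 1.8% of all tested rows in either direction. The median log2 difference of the 60 rows was -0.05 on HFD and -0.22 on chow, against 0.002 and 0.01 over all tested rows. On chow the groups did not overlap and were lower in het-labelled livers in 27 rows (45%, against 21.9% of all tested rows) and higher in 7 (11.7%, against 24%). On HFD the corresponding counts were 15 lower (24.3% of all tested rows) and 11 higher (22.8%).

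Cyp26b1, which breaks down retinoic acid, was the row furthest apart between the genotypes. On HFD it had 2.84 and 0.853 CPM in het-labelled, against 14.4 and 9.56 CPM in wild-type livers. On chow it had 1.42 and 1.02 CPM in het-labelled, against 6.11 and 14.9 CPM in wild-type livers. All 4 het-labelled libraries lay below all 4 wild-type libraries, while the wild-type chow libraries themselves were far apart. The log2 difference (het-labelled over wild-type) was -2.62 ± 0.52 on HFD (edgeR adjusted p = 0.0737) and -3.11 ± 0.59 on chow (edgeR adjusted p = 0.0628). A test of the genotype difference averaged over both diets, added after the data were seen, called Cyp26b1 lower (-2.87 ± 0.39, edgeR adjusted p = 0.0156), and the call ended without wild-type chow library 2 (0.0547). Markers of Kupffer cells, the liver macrophages, summed on HFD to 114 to 185 CPM in het-labelled and 109 to 115 CPM in wild-type livers, and on chow to 267 to 346 CPM in het-labelled and 108 to 118 CPM in wild-type livers. Stellate cell markers summed on HFD to 51.2 to 71.2 CPM in het-labelled and 68.3 to 76.8 CPM in wild-type livers, and on chow to 57.2 to 89.4 CPM in het-labelled and 69.1 to 73.0 CPM in wild-type livers. The part of either cell type in the Cyp26b1 values was not tested.

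The averaged genotype test called 4 of the 60 rows, all lower in het-labelled livers (6.67%, against 3.24% of all tested rows, of which 1.21% were higher and 2.03% lower). Besides Cyp26b1 these were Cyp2c55 (-0.76 ± 0.13, edgeR adjusted p = 0.0248), Cyp46a1 (-1.25 ± 0.25, edgeR adjusted p = 0.0389, and 0.0548 with DESeq2) and Cyp4a12b (-0.67 ± 0.13, edgeR adjusted p = 0.0325). Of these 4 calls, 1 was kept without library 7, 2 without library 8, 2 without library 3, 3 without library 4, 1 without library 5, 2 without library 6, 2 without library 1 and 0 without library 2. Cyp46a1 lost its call in each of these 8 fits. The share of all tested rows called lower ranged from 0.143% without library 2 to 3.71% without library 4, against 2.03% with all libraries. Cyp39a1 was the nearest row on the higher side (0.93 ± 0.21, edgeR adjusted p = 0.0515), with 7.83 to 18.8 CPM in het-labelled and 5.14 to 10.9 CPM in wild-type libraries. On HFD alone, Cyp2c70 was 1.69-fold higher in het-labelled livers without passing the test (log2 difference 0.76 ± 0.15, edgeR adjusted p = 0.0737). It passed in 3 of 13 alternatives, among them DESeq2 (adjusted p = 0.000344), and its adjusted p over the 13 ran up to 0.41.

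In each group, the 2 libraries differed more in P450 levels than in all tested rows by the median absolute log2 ratio. This was 0.298 against 0.160 in het-labelled HFD and 0.251 against 0.202 in het-labelled chow livers. It was 0.239 against 0.133 in wild-type HFD and 0.188 against 0.127 in wild-type chow livers. Large differences were more frequent than in all tested rows in the het-labelled groups, and about as frequent in the wild-type groups. The 2 het-labelled HFD libraries differed by more than 1 on the log2 scale (after 0.1 CPM was added) in 9 of the 60 rows (15%, against 3.17% of all tested rows), the het-labelled chow libraries in 4 (6.67%, against 3.16%), the wild-type HFD libraries in 1 (1.67%, against 1.83%) and the wild-type chow libraries in 1 (1.67%, against 1.51%). Among the 9 were 5 Cyp3a rows, all higher in library 7 than in library 8, with log2 ratios from 1.10 for Cyp3a25 to 2.54 for the joined Cyp3a41b and Cyp3a41a row. Some rows shared which library of each pair was the higher one. Libraries 7, 4, 6 and 1 were the higher ones in 12 of the 60 rows and in 5.37% of all tested rows. Of these rows, 7 were among the 9 tested Cyp2d rows (Cyp2d9, Cyp2d10, Cyp2d11, Cyp2d12, Cyp2d13, Cyp2d22 and Cyp2d26). The others were Cyp2c44, Cyp2c50, Cyp2c54, Cyp3a16 and Cyp4f14. Libraries 8, 4, 5 and 1 were the higher ones in Cyp2c40, Cyp2c67, Cyp2c68, Cyp2c69, Cyp4a31 and Cyp4a32 and in 5.53% of all tested rows. Several of these rows share windows with another gene, from 2.72% in Cyp4f14 to 72.1% in Cyp2c40. The part of such sharing in the patterns was not tested. By contrast, within the 6 tested Cyp4f rows, the 4 Cyp2a rows and the 3 Cyp2j rows, no 2 rows had the same pattern. Library 8 also stood apart from library 7 in other liver genes. Onecut1, a hepatocyte transcription factor, stood at 66.7 CPM in library 8 and 2.95 CPM in library 7. It had 47.4 and 28.9 CPM in het-labelled chow, 3.06 and 2.24 CPM in wild-type HFD and 17.8 and 9.21 CPM in wild-type chow livers. Alas1, the first enzyme of haem synthesis, stood at 598 CPM in library 8 and 112 CPM in library 7. It had 374 and 293 CPM in het-labelled chow, 146 and 170 CPM in wild-type HFD and 180 and 248 CPM in wild-type chow livers. Without library 7 the het-labelled HFD group rests on library 8 alone, which was then assumed to vary like the other groups.

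**Figure D5:**
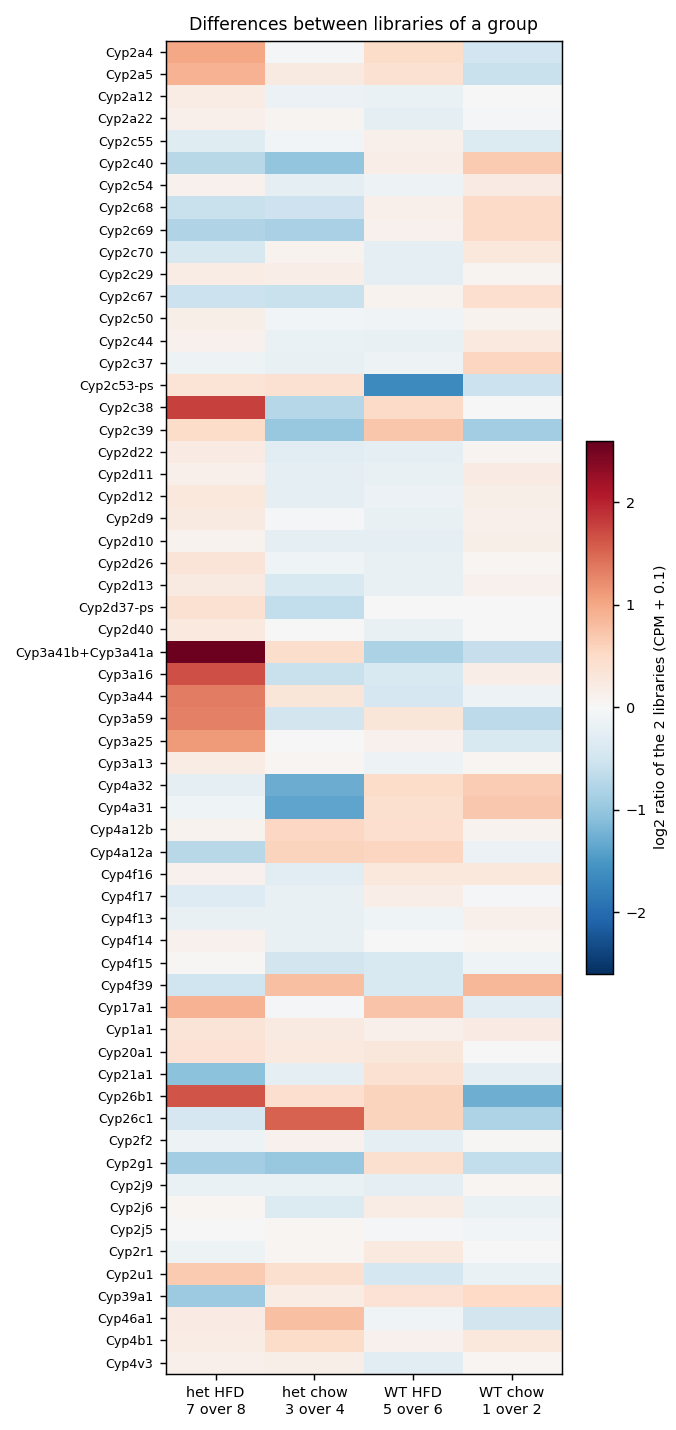
Log2 ratio of the 2 libraries of each group (CPM + 0.1) for the 60 tested rows, in columns for het-labelled HFD, het-labelled chow, wild-type HFD and wild-type chow, with red where the first-named library is higher. The Cyp3a rows are red in het-labelled HFD (library 7 over 8), and most of the neighbouring Cyp2d rows share pale colours of the same sign within each column.

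Genes that serve P450 enzymes had 1 call higher and 1 lower among 12 tested rows in wild-type livers and 1 higher in het-labelled livers, against 4.59% and 3.02% of all tested rows called. Of the 12 rows for electron transfer partners and haem supply, Pgrmc2, a haem-binding membrane protein, rose in het-labelled livers (66.2 and 67.4 CPM on HFD, against 41.4 and 44.3 CPM on chow, log2 change 0.64 ± 0.10, edgeR adjusted p = 0.0182) and in wild-type livers (95.9 and 87.2 CPM, against 50.6 and 58.8 CPM, 0.74 ± 0.10, edgeR adjusted p = 0.00636). Its relative Pgrmc1, which binds P450 enzymes, fell in wild-type livers (945 and 981 CPM on HFD, against 1233 and 1244 CPM on chow, -0.36 ± 0.08, edgeR adjusted p = 0.0484). The Pgrmc2 call ended in het-labelled livers without library 7 or 3 or with the 2 groups alone (adjusted p up to 0.0626) and in wild-type livers without library 5 or 1 (up to 0.0833). The Pgrmc1 call ended without any 1 of libraries 7, 8, 5, 6, 1 and 2 (up to 0.235). The reductase gene Por did not pass the test, with 138 and 124 CPM on HFD and 119 and 135 CPM on chow in het-labelled livers. Por in wild-type livers had 106 and 87.7 CPM on HFD and 121 and 146 CPM on chow. Of 16 tested regulators, Nfe2l2, the oxidative stress factor, rose in wild-type livers (113 and 103 CPM on HFD, against 55.5 and 63.6 CPM on chow, 0.86 ± 0.18, edgeR adjusted p = 0.0329) and was not called in het-labelled livers. The Nfe2l2 call ended without any 1 of libraries 5, 6, 1 and 2 (adjusted p up to 0.261). The receptor genes Nr1i2 and Nr1i3 were not called in either genotype. The median log2 change was 0.01 in het-labelled and -0.25 in wild-type livers over the partners, and 0.11 and 0.02 over the regulators.

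Groupings that cross the subfamilies, from lists chosen with earlier results of these data known, gave the counts below. For comparison, 1.48% of all tested rows were called lower and 1.53% higher on HFD in het-labelled livers. In wild-type livers these shares were 2.22% and 2.37%. Of 7 rows known as CAR- or PXR-inducible (Cyp2c29, Cyp2c37, Cyp2c50, Cyp2c54, Cyp2c55, Cyp2a4 and Cyp2a5), 2 fell in het-labelled and 6 in wild-type livers, with median log2 changes of -0.95 and -0.88. Of 9 tested female-predominant genes, Cyp3a44 fell in het-labelled livers, and Cyp3a44, Cyp3a16 and Cyp2a4 fell and Cyp17a1 rose in wild-type livers. Of 11 male-predominant genes, Susd4 and Serpina1e fell in both genotypes and C6 in wild-type livers, and none of the 4 P450 rows in that list (Cyp2d9, Cyp4a12a, Cyp4a12b and Cyp2u1) passed. Of 13 periportal hepatocyte genes 1 fell in het-labelled and 6 in wild-type livers, and of 12 pericentral genes 1 and 2 fell. Blood cell markers summed to 349.9 to 371 CPM in het-labelled HFD, against 239.6 to 253 CPM in het-labelled chow livers, and to 653 to 828 CPM in wild-type HFD, against 258 to 320.1 CPM in wild-type chow livers. Summed hepatocyte markers ran from 72843 to 74619 CPM in het-labelled HFD, against 83856 to 87738 CPM in het-labelled chow livers. In wild-type livers they ran from 73822 to 74667 CPM on HFD, against 85172 to 90749 CPM on chow. The sum was lower in each HFD library, and most of it was Alb, the albumin gene, with 45554 to 50999 CPM in the 4 HFD libraries and 56437 to 61945 CPM in the 4 chow libraries. Serpina1a, Fgb and Hnf4a were also lower in each HFD library than in the chow libraries of its genotype, and Ahsg was so in wild-type livers. Apoa1 was lower in each wild-type HFD library, with 5094 and 5416 CPM, against 5993 and 6273 CPM on chow. In het-labelled livers Apoa1 was higher, with 6014 and 7081 CPM on HFD, against 4217 and 5139 CPM on chow. Ttr and Tat were not lower in each HFD library. By edgeR, 2 of the 8 hepatocyte markers fell in wild-type livers, and the median log2 change of the list was -0.14 in het-labelled and -0.25 in wild-type livers. The part of cell makeup in the P450 values was not tested.

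The 27 rows that were not tested had few reads or none. Over the 8 libraries together, 13 rows had 0 counts, among them the adrenal and gonadal enzymes Cyp11b1, Cyp11b2 and Cyp19a1, the vitamin D 24-hydroxylase Cyp24a1, and Cyp2b19, Cyp2b23, Cyp2w1 and Cyp4x1. For these rows the limit that a count of 0 allows is 3 counts, or 0.161 to 0.213 CPM per library, for counting error only. The other 14 rows had between 1 and 66 counts in all, led by Cyp1b1 (66), Cyp2s1 (45), Cyp4f18 (32) and Cyp2t4 (27), too few to describe by diet or genotype.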

How the data were processed

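RNA-seq of total liver RNA (RNeasy extraction, TruSeq libraries, Illumina HiSeq, per the labels' protocols) gave the read counts per gene symbol that the authors deposited, which are whole numbers and not normalized. The submitters' processing notes name CASAVA, TopHat2, HTSeq, DESeq and build mm9, with no settings. Strand and read length are not given in the sources used here, so reads of overlapping and antisense genes cannot be told apart.

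Groups came from the titles. Counts were fitted with edgeR 4.0.16 in R 4.3.3: filterByExpr (12593 rows kept), TMM factors and a quasi-likelihood fit with 4 group means over 8 libraries, 2-sided tests, Benjamini-Hochberg adjustment over all tested rows and a threshold of 0.05. Each SE and 95% interval was calculated back from the test and is approximate. DESeq2 1.42.0, other size factors, no filter, library sizes without the merged major urinary protein row, 2-group fits and leaving out each library were alternatives. The 2 averaged contrasts were added after the data were seen. The procedure was tested on simulated counts. Named rows were all called members and a list of other members. Members, gene lists and tests were chosen with earlier results of these data known. Windows of 50 bases were compared among GENCODE transcripts for the 83 rows matched, and promoters came from RefSeq (GRCm38.p6), found for 64 of 88 symbols. Neither is the build of the counts.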

Additional observations from a re-analysis of the deposited data

How the results depend on the processing

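No paired analysis was possible because the library numbers run from 1 to 8 and no 2 groups share one. Of the recomputed values of named genes, 1366 stayed on their side of the threshold, 146 lost a call, 65 gained one and 16 changed sign. All 16 were uncalled log2 changes for diet, with 1 library left out. Over these fits the ranges in het-labelled livers were those of Cyp2a12 (-0.041 to 0.15), Cyp2c70 (-0.16 to 0.26), Cyp21a1 (-0.25 to 0.85) and Cyp4v3 (-0.12 to 0.047). In wild-type livers they were those of Cyp2a12 (-0.12 to 0.034), Cyp2d11 (-0.062 to 0.14), Cyp2d12 (-0.0101 to 0.12), Cyp2d22 (-0.15 to 0.078), Cyp2r1 (-0.19 to 0.093), Cyp4a31 (-0.65 to 0.034) and Cyp4f15 (-0.23 to 0.14). DESeq2's size factors and removal of the major urinary protein row from the library sizes moved no count of calls by over 1.5 times.

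With the 2 groups compared alone, wild-type calls were 5 higher and 22 lower (3 and 11 in the fit of all libraries), and het-labelled calls 1 higher and 2 lower (3 and 4). Over all tested rows, 10.5% were then called in wild-type and 0.866% in het-labelled livers. DESeq2 called 9 rows lower on HFD in het-labelled livers, 2 higher and 2 lower between genotypes on HFD, 2 lower on chow, 1 higher in the interaction and 2 higher in the averaged genotype test. DESeq2 called 2% of all tested rows lower on HFD in het-labelled livers, 1.91% in either direction between genotypes on HFD, 1.8% on chow, 0.23% in the interaction and 4.4% in the averaged genotype test. Without a filter on low counts, 13 rows were lower on HFD in het-labelled livers, 1 higher and 1 lower between genotypes on HFD, 3 lower on chow, and 2 higher and 8 lower in the averaged genotype test. Over the 17120 rows then tested, 2.02% were lower on HFD in het-labelled livers, 1.51% were called between genotypes on HFD, 1.83% on chow and 4.44% in the averaged genotype test. The cause of these shifts was not tested.

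Leaving out 1 library at a time gave 1 to 4 higher and 2 to 13 lower in wild-type livers, 1 to 3 higher and 2 to 9 lower in het-labelled livers, 0 to 2 higher and 0 to 2 lower between genotypes on HFD, 0 to 1 lower on chow, 4 to 6 higher and 10 to 20 lower in the averaged diet test, and 0 to 1 higher and 0 to 5 lower in the averaged genotype test.

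Depth limits rows near 1 CPM, such as Cyp46a1, Cyp3a16 and Cyp26b1 in het-labelled livers, whose libraries hold few reads.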
